A study of Mus musculus with 9 samples.

Results

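The 10 genes described here encode proteins that fold, hydroxylate and cross-link collagen: the chaperone Serpinh1, the prolyl 4-hydroxylase subunits P4ha1, P4ha2 and P4hb, the lysyl hydroxylases Plod1, Plod2 and Plod3, and the lysyl oxidases Lox, Loxl1 and Loxl2. They were chosen by gene symbol from 22036 annotated genes, and all 10 were found and had enough reads to be tested. RNA came from the left ventricle of mice labelled WT, in 3 groups of 3 biological replicates. HFD+AAV-BCKDK mice had a diet labelled HFD, taken to mean high-fat diet, and an adeno-associated virus (AAV) vector named for BCKDK. HFD+AAV-CON mice had that diet with the control vector. ND+AAV-CON mice had the control vector and a diet labelled ND, taken to mean normal diet. All 3 groups therefore carried an AAV vector. Bckdk encodes the kinase that phosphorylates and inhibits the dehydrogenase complex of branched-chain amino acid breakdown. The series asks whether the BCKDK vector changes cardiac remodelling in diet-induced obesity. Not given in the sources used here: vector promoter, vector dose, the age of the mice, and the content and length of the diets.

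Collagen chains are modified and folded in the endoplasmic reticulum (ER) before they leave the cell. Prolyl hydroxylation gives the triple helix its thermal stability, lysyl hydroxylation prepares sites for sugar addition and cross-linking, and Serpinh1 protein, also called HSP47, binds and guards the folded helix on its way to the Golgi. Outside the cell, lysyl oxidases oxidise lysines and hydroxylysines so that neighbouring molecules form covalent cross-links, which stiffen scar tissue. In the heart, fibroblasts are the main source of fibrillar collagen, while several of the ER proteins are made in every secretory cell.

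The 3 comparisons below came from edgeR's quasi-likelihood test over all 14160 genes tested, with Benjamini-Hochberg adjusted p-values and a threshold of 0.05. Levels are CPM, a gene's counts relative to the size of its library, with library sizes scaled by edgeR's trimmed mean of M values (TMM). Fold changes are on the log2 scale, with the standard error (SE) after them. The 9 libraries held 32803233 to 45483044 counts in annotated genes. The share of mitochondrially encoded counts was 45.0% to 47.6% in HFD+AAV-BCKDK libraries, 26.1%, 39.9% and 33.2% in HFD+AAV-CON replicates 1, 2 and 3, and 42.1% to 45.7% in ND+AAV-CON libraries. HFD+AAV-CON replicate 3 stood apart in a way the labels do not explain. Of 439 genes that differed more than 2-fold between replicates 1 and 2 of its group, 98.4% had a level in replicate 3 between those of the other libraries, against 14.3% to 84.6% for the same measure in the other 8 libraries. Its unnamed loci also held 1.02% of counts, against 4.75% to 6.01% elsewhere. Whether that library is an independent animal was not tested, so results that change without it are given both ways.

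Bckdk itself was read first as a check of the labels. It had 111, 126 and 119.9 CPM in HFD+AAV-BCKDK hearts, 37.1, 65.0 and 49.4 CPM in HFD+AAV-CON hearts, and 78.6, 70.3 and 70.6 CPM in ND+AAV-CON hearts, with no overlap between groups. It was higher in HFD+AAV-BCKDK than in HFD+AAV-CON hearts (log2 fold change 1.24, SE 0.17, adjusted p = 0.00161) and lower in HFD+AAV-CON than in ND+AAV-CON hearts (-0.54, SE 0.17, adjusted p = 0.0300). The second difference no longer passed when replicate 1 or 3 of HFD+AAV-CON (adjusted p = 0.0525 and 0.0852) or any ND+AAV-CON replicate (0.0552 to 0.0905) was left out, and on total-count scaling the value was -0.18. HFD+AAV-BCKDK exceeded ND+AAV-CON by 0.70 (SE 0.17, adjusted p = 0.0700), which did not pass.

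All 10 genes rose in HFD+AAV-CON hearts against ND+AAV-CON hearts, and the groups did not overlap for any of them. In that comparison 43.3% of all genes tested were called, 22.7% as higher and 20.6% as lower, and 55.3% had groups that did not overlap, so a call for a single gene was common. The median of the 10 log2 fold changes was 1.12, with a range from 0.33 (P4hb) to 2.86 (Lox), beside a median of -0.002 over all genes tested. In HFD+AAV-BCKDK against HFD+AAV-CON hearts, 8 of the 10 fell and P4ha2 and Plod1 did not pass. There 38.2% of all genes were called, 17.3% as higher and 20.9% as lower. The members' median was -0.50, beside -0.010 over all genes. The same HFD+AAV-CON libraries enter both comparisons, so the rise in one and the fall in the other are not independent observations. The RNA came from whole tissue, in which fewer cells of a type cannot be told apart from less RNA per cell.

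HFD+AAV-BCKDK hearts against ND+AAV-CON hearts is the comparison in which the genes separated. These groups differ in both diet and vector, and no group had the BCKDK vector on normal diet. A diet difference left in place and an effect of the vector itself therefore cannot be told apart. In this comparison 2.45% of all genes were called, 1.18% as higher and 1.27% as lower. Of the 10 genes, 4 were called, all higher in HFD+AAV-BCKDK hearts: Serpinh1, P4ha1, P4ha2 and Plod3. The other 6 did not pass, and they include the 3 lysyl oxidases, Plod2 and P4hb. In all, 6 of the 10 had groups that did not overlap, against 27.7% of all genes, and in each of the 6 the HFD+AAV-BCKDK libraries were the higher ones. The members' median was 0.37, with a range from -0.04 to 1.32, beside -0.027 over all genes.

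**Figure D1:**
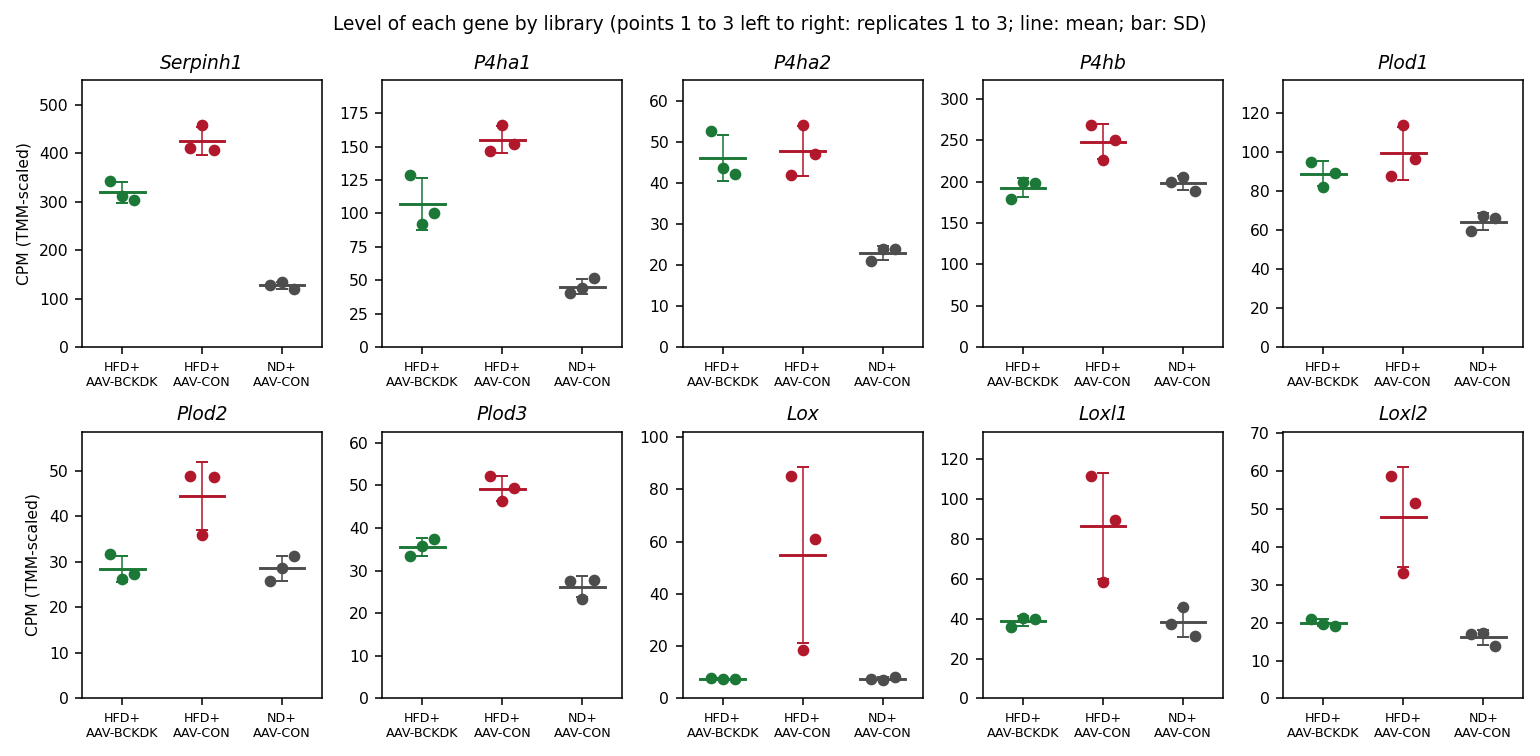
Level of each of the 10 genes in TMM-scaled CPM (vertical axis, from 0, its own scale in each panel) in the 3 groups; points are libraries, lines the means and bars the SD (n = 3 each). Serpinh1, P4ha1 and P4ha2 of HFD+AAV-BCKDK hearts lie well above the ND+AAV-CON points, while Lox stays at 7.31 to 7.75 CPM in HFD+AAV-BCKDK hearts, next to 7.15 to 8.21 CPM in ND+AAV-CON hearts.

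Serpinh1, the collagen-specific chaperone, was the most abundant of the 10 per length of transcript in both high-fat groups. It had 344, 311 and 304 CPM in HFD+AAV-BCKDK hearts, 410.5, 459 and 408 CPM in HFD+AAV-CON hearts, and 129, 135 and 119.9 CPM in ND+AAV-CON hearts. The 3 groups formed separate bands, with the vector group nearer to the high-fat control than to the normal-diet control. HFD+AAV-CON exceeded ND+AAV-CON by a log2 fold change of 1.74 (SE 0.096, adjusted p = 8.02e-05). HFD+AAV-BCKDK was lower than HFD+AAV-CON by 0.41 (SE 0.094, adjusted p = 0.01003) and higher than ND+AAV-CON (log2 fold change 1.32, SE 0.095, adjusted p = 0.000488). Its excess over ND+AAV-CON passed under every alternative and leave-one-out fit that was run.

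P4ha1 and P4ha2 encode alternative catalytic subunits of collagen prolyl 4-hydroxylase, each of which pairs with the protein encoded by P4hb. P4ha1 had 129, 92.2 and 100.3 CPM in HFD+AAV-BCKDK hearts, 147, 166 and 152 CPM in HFD+AAV-CON hearts, and 40.5, 43.9 and 51.5 CPM in ND+AAV-CON hearts. Again the 3 groups did not overlap. The log2 fold change was 1.78 in HFD+AAV-CON against ND+AAV-CON (SE 0.14, adjusted p = 0.000219) and 1.24 in HFD+AAV-BCKDK against ND+AAV-CON (SE 0.14, adjusted p = 0.00401). Its fall in HFD+AAV-BCKDK against HFD+AAV-CON was -0.53 (SE 0.14, adjusted p = 0.0157), and this call did not hold without HFD+AAV-BCKDK replicate 2 (adjusted p = 0.0588) or 3 (0.0544) or HFD+AAV-CON replicate 3 (0.0505).

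P4ha2 had 52.6, 43.7 and 42.1 CPM in HFD+AAV-BCKDK hearts, 41.9, 54.2 and 47.1 CPM in HFD+AAV-CON hearts, and 21.0, 23.9 and 23.8 CPM in ND+AAV-CON hearts. The groups on high-fat diet overlapped each other, and both lay wholly above the normal-diet group. HFD+AAV-CON exceeded ND+AAV-CON by 1.06 (SE 0.12, adjusted p = 0.000590) and HFD+AAV-BCKDK exceeded ND+AAV-CON by 1.01 (SE 0.12, adjusted p = 0.00545). The difference between HFD+AAV-BCKDK and HFD+AAV-CON was -0.05, with an approximate 95% interval from -0.28 to 0.18 (adjusted p = 0.769). The approximate interval of P4ha1 in the same comparison, from -0.80 to -0.27, overlaps it slightly.

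P4hb encodes protein disulfide isomerase, which serves as the other subunit of prolyl 4-hydroxylase and also forms disulfide bonds in many secreted proteins. It had 179, 199.9 and 199 CPM in HFD+AAV-BCKDK hearts, 269, 227 and 249.9 CPM in HFD+AAV-CON hearts, and 199.6, 205 and 189 CPM in ND+AAV-CON hearts. The HFD+AAV-CON libraries were the highest and the other groups overlapped. Its rise under diet was the smallest of the 10 (0.33, SE 0.092, adjusted p = 0.0184), and its fall in HFD+AAV-BCKDK against HFD+AAV-CON was -0.37 (SE 0.092, adjusted p = 0.0150). Without HFD+AAV-CON replicate 3 neither passed (adjusted p = 0.0639 for each). The diet call was also lost without HFD+AAV-CON replicate 1 (0.0526) or ND+AAV-CON replicate 3 (0.0680), and the vector call without HFD+AAV-BCKDK replicate 1 (0.0599). HFD+AAV-BCKDK against ND+AAV-CON gave -0.04, with an approximate interval from -0.22 to 0.14 (adjusted p = 0.884).

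The starts of the chaperone and prolyl hydroxylase genes follow because 3 of the 4 were called higher in HFD+AAV-BCKDK than in ND+AAV-CON hearts. P4hb was not. RefSeq promoters (GRCm38.p6, the assembly named mm10) run from 250 bases before to 50 after the start site that the RefSeq table uses, and 6 of the 10 genes matched an entry. That site equals the GENCODE gene start for Serpinh1, P4ha1 and P4hb. For P4ha2 it lies 829 bases downstream of the GENCODE gene start, so its window falls inside the gene as GENCODE draws it and positions in it count from the RefSeq site. Each is printed 5′ to 3′ on the gene's strand: Serpinh1 at chr7:99353190-99353489 on the minus strand, P4ha1 at chr10:59323046-59323345 on the plus strand, P4ha2 at chr11:54100674-54100973 on the plus strand and P4hb at chr11:120573204-120573503 on the minus strand. Capitals mark the hypoxia-response core (ACGTG or GCGTG, read on either strand, so that CACGT and CACGC also count) and the heat shock dyad (GAANNTTC or TTCNNGAA, each its own reverse complement).
Serpinh1: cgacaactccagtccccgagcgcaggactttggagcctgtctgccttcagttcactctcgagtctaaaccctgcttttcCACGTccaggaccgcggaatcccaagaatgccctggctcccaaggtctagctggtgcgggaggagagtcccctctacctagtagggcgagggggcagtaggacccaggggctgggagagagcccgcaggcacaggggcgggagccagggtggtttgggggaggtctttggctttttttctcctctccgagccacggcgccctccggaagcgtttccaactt
P4ha1: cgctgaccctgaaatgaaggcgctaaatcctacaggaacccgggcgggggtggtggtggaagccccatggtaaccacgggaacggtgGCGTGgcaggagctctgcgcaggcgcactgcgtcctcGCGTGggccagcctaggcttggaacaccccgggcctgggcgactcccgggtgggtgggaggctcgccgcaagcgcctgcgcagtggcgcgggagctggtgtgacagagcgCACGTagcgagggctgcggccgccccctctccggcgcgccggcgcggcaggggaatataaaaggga
P4ha2: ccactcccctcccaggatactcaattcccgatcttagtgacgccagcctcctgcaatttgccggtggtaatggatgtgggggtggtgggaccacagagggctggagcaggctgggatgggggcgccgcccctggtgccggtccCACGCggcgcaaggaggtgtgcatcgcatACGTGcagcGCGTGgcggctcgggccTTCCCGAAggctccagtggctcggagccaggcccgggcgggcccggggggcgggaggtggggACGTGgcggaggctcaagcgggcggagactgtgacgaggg
P4hb: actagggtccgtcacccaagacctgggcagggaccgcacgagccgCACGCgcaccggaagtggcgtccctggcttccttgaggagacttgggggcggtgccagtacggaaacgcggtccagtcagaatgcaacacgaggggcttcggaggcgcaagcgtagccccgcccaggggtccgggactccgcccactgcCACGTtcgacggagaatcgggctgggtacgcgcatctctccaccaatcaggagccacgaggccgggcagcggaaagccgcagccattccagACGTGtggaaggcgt
The hypoxia-response core occurred 1 time in the Serpinh1 window, 3 times in P4ha1, 4 times in P4ha2 and 3 times in P4hb. Among all 32851 promoters of that length, 43.8% held at least 1 core and 8.93% held 3 or more. The windows printed above had GC contents of 62.3% (Serpinh1), 70.3% (P4ha1), 70.3% (P4ha2) and 67.0% (P4hb). The promoters were not matched for GC content, so the counts cannot be read as an excess of cores. The heat shock dyad occurred 1 time, in P4ha2, starting 52 bases before its RefSeq start site as TTCCCGAA, and 15.1% of all promoters held it. The ER stress element, searched on either strand, was in none of the 6 matched windows and in 0.119% of all promoters. Plod1 held 2 cores and 1 dyad, and Plod3 held 4 cores and no dyad. P4hb and P4ha1 held the same number of cores. These are matches of letters within the windows. They say nothing of binding, and their part in the levels was not tested.

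**Figure D2:**
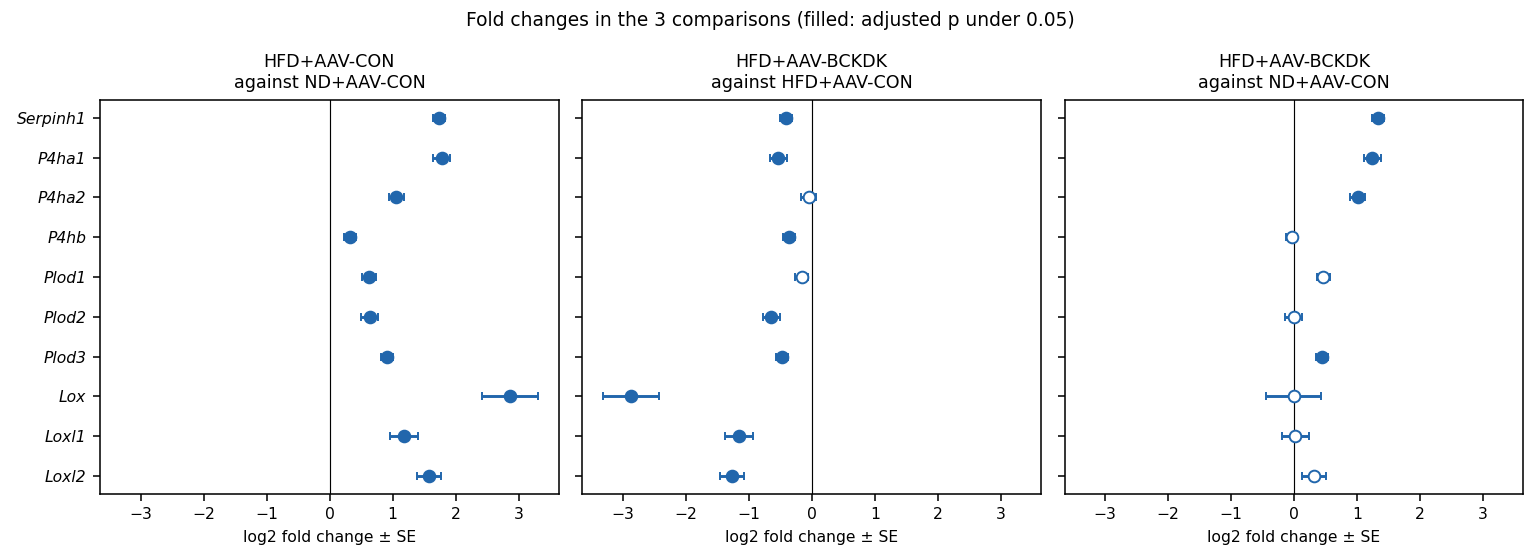
Log2 fold change (horizontal axis, with its SE as the bar) of the 10 genes in the 3 comparisons; filled points have an adjusted p under 0.05. In the right panel Serpinh1, P4ha1 and P4ha2 lie between 1.01 and 1.32 and Plod3 at 0.44, while Lox, Loxl1, Plod2 and P4hb lie within 0.04 of 0.

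Among lysyl hydroxylases, Plod1 acts mainly on lysines of the triple helix. It had 95.0, 82.2 and 89.1 CPM in HFD+AAV-BCKDK hearts, 87.7, 114 and 96.2 CPM in HFD+AAV-CON hearts, and 59.5, 67.2 and 66.3 CPM in ND+AAV-CON hearts. As for P4ha2, the high-fat groups overlapped and both lay above the normal-diet group. It rose under diet (0.63, SE 0.11, adjusted p = 0.00229). HFD+AAV-BCKDK differed from HFD+AAV-CON by -0.16 (approximate interval -0.37 to 0.05, adjusted p = 0.259) and from ND+AAV-CON by 0.46 (SE 0.11), and the adjusted p of that difference was 0.0629. DESeq2 put it at 0.00301, and it also passed without HFD+AAV-CON replicate 1 (0.0279) or 2 (0.0126).

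Plod2 hydroxylates the telopeptides at the ends of collagen chains, the step that leads to the hydroxylysine type of cross-link found in scars. It had 31.7, 26.3 and 27.3 CPM in HFD+AAV-BCKDK hearts, 48.9, 35.9 and 48.7 CPM in HFD+AAV-CON hearts, and 25.7, 28.8 and 31.3 CPM in ND+AAV-CON hearts. The HFD+AAV-CON libraries were highest, and the other groups overlapped. It rose under diet (0.64, SE 0.14, adjusted p = 0.00559), fell in HFD+AAV-BCKDK against HFD+AAV-CON (-0.65, SE 0.14, adjusted p = 0.00724), and differed from ND+AAV-CON by -0.01 in HFD+AAV-BCKDK hearts (approximate interval -0.28 to 0.26).

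Plod3 encodes an enzyme that both hydroxylates lysine and adds sugars to hydroxylysine. It had 33.4, 35.7 and 37.5 CPM in HFD+AAV-BCKDK hearts, 52.2, 46.3 and 49.3 CPM in HFD+AAV-CON hearts, and 27.7, 23.4 and 27.7 CPM in ND+AAV-CON hearts. The 3 groups formed separate bands, as for Serpinh1, but here the vector group lay closer to the normal-diet group. The log2 fold changes were 0.91 under diet (SE 0.092, adjusted p = 0.000410), -0.47 in HFD+AAV-BCKDK against HFD+AAV-CON (SE 0.091, adjusted p = 0.00548) and 0.44 in HFD+AAV-BCKDK against ND+AAV-CON (SE 0.092, adjusted p = 0.0443). Without HFD+AAV-CON replicate 3 the adjusted p of the last value was 0.0839, and among the fits that left out a library the call held only without HFD+AAV-CON replicate 1 or 2. Plod3 also shares 529 exon bases with Znhit1 on the opposite strand, and no source used here states whether reads were counted by strand. Znhit1 averaged 21.3 CPM in HFD+AAV-BCKDK hearts, 18.9 CPM in HFD+AAV-CON hearts and 22.0 CPM in ND+AAV-CON hearts, and was called in none of the comparisons. The Plod3 counts are uncertain by that overlap.

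Lox, the founding lysyl oxidase, had the widest swing of the 10. It had 7.75, 7.53 and 7.31 CPM in HFD+AAV-BCKDK hearts, 85.1, 18.4 and 61.0 CPM in HFD+AAV-CON hearts, and 7.30, 7.15 and 8.21 CPM in ND+AAV-CON hearts. Within HFD+AAV-CON the highest library was 4.63 times the lowest, yet even the lowest lay above every library of the other groups. It rose under diet (2.86, SE 0.44, adjusted p = 0.00153) and fell in HFD+AAV-BCKDK against HFD+AAV-CON (-2.87, SE 0.45, adjusted p = 0.00225). HFD+AAV-BCKDK hearts differed from ND+AAV-CON hearts by -0.01, with an approximate interval from -0.86 to 0.85, since the fit uses 1 estimate of the spread for all 3 groups.

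Loxl1, the relative of Lox known for its part in elastic fibres, had 35.7, 40.4 and 40.0 CPM in HFD+AAV-BCKDK hearts, 111, 58.4 and 89.3 CPM in HFD+AAV-CON hearts, and 37.4, 45.9 and 31.2 CPM in ND+AAV-CON hearts. The HFD+AAV-BCKDK libraries lay inside the range of the ND+AAV-CON libraries. It rose under diet (1.18, SE 0.22, adjusted p = 0.00304), fell in HFD+AAV-BCKDK against HFD+AAV-CON (-1.16, SE 0.22, adjusted p = 0.00477), and gave 0.02 in HFD+AAV-BCKDK against ND+AAV-CON (approximate interval -0.40 to 0.44).

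Loxl2, which cross-links fibrillar and basement membrane collagens, had 21.1, 19.6 and 19.2 CPM in HFD+AAV-BCKDK hearts, 58.7, 33.1 and 51.7 CPM in HFD+AAV-CON hearts, and 17.1, 17.4 and 13.8 CPM in ND+AAV-CON hearts. Its 3 groups did not overlap, unlike those of the other lysyl oxidases. The log2 fold changes were 1.57 under diet (SE 0.19, adjusted p = 0.000662) and -1.26 in HFD+AAV-BCKDK against HFD+AAV-CON (SE 0.19, adjusted p = 0.00200). The difference of 0.31 between HFD+AAV-BCKDK and ND+AAV-CON hearts did not pass (approximate interval -0.06 to 0.68, adjusted p = 0.455).

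Per kilobase of exon, the order of the mean levels in HFD+AAV-BCKDK hearts was Serpinh1 (131 CPM per kb), P4hb (67.3), P4ha1 (26.0), Plod1 (13.1), Loxl1 (11.7), Plod3 (7.86), P4ha2 (7.40), Plod2 (5.27), Loxl2 (3.70) and Lox (1.58). The libraries of Plod1 and Loxl1 overlapped there, as did those of Plod3 and P4ha2, while all other neighbours in this order were apart. In HFD+AAV-CON hearts Lox averaged 11.5 ± 7.1 CPM per kb (SD, n = 3), a mean close to that of Plod3 at 10.9 ± 0.66 but with a far wider spread, whereas it was the lowest of the 10 in both other groups. In ND+AAV-CON hearts P4hb (69.2 CPM per kb) stood above Serpinh1 (52.3), the reverse of their order on high-fat diet. Together the 10 genes took 0.0740% to 0.0821% of annotated counts in HFD+AAV-BCKDK libraries, 0.124% to 0.186% in HFD+AAV-CON libraries and 0.0513% to 0.0547% in ND+AAV-CON libraries.

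Set against the distance between the control groups, the genes spread widely. The CPM difference between HFD+AAV-BCKDK and ND+AAV-CON hearts was taken as a percentage of that between HFD+AAV-CON and ND+AAV-CON hearts. For Serpinh1 it was 64.4% (62.5% to 68.2% when each HFD+AAV-CON library was left out in turn). P4ha1 gave 56.2% (54.2% to 59.3%) and P4ha2 93.6% (83.8% to 108%). Plod1 gave 69.8% (59.9% to 88.4%) and Plod3 40.4% (37.9% to 43.2%). For Loxl2 the figure was 12.2% (9.90% to 14.7%), for Loxl1 1.14%, for Lox -0.051%, for Plod2 -1.13% and for P4hb -10.3%. No test was made of these shares, since both differences use ND+AAV-CON.

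Within HFD+AAV-CON the libraries also differed among themselves. Replicate 2 had the highest level of Serpinh1, P4ha1, P4ha2 and Plod1, and replicate 1 that of the other 6 genes. The highest library was 1.13 times the lowest for Serpinh1, P4ha1 and Plod3, 1.19 for P4hb, and between 1.29 and 1.36 for P4ha2, Plod1 and Plod2. For the lysyl oxidases it was 1.77 (Loxl2), 1.91 (Loxl1) and 4.63 (Lox), each lowest in replicate 2. Summed markers of activated fibroblasts followed the oxidases, at 1939, 491 and 1438 CPM in HFD+AAV-CON replicates 1, 2 and 3. Mitochondrial counts took their highest share of the group in replicate 2. The part of either in these differences was not tested.

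The mRNAs of the main fibrillar collagens, whose chains are the substrates of these proteins, were measured in the same libraries. Col1a1 averaged 65.8 ± 7.57 CPM in HFD+AAV-BCKDK hearts, 250.02 ± 104 CPM in HFD+AAV-CON hearts and 51.6 ± 3.35 CPM in ND+AAV-CON hearts (SD, n = 3 each). Col1a2 averaged 95.0 ± 12.1 CPM in HFD+AAV-BCKDK hearts, 398 ± 171 CPM in HFD+AAV-CON hearts and 92.3 ± 7.65 CPM in ND+AAV-CON hearts. Col3a1 averaged 163 ± 38.8 CPM in HFD+AAV-BCKDK hearts, 723 ± 312 CPM in HFD+AAV-CON hearts and 148 ± 28.1 CPM in ND+AAV-CON hearts. All of them rose under diet and fell with the vector, and between HFD+AAV-BCKDK and ND+AAV-CON hearts their log2 fold changes were 0.35, 0.04 and 0.14 (adjusted p = 0.559, 0.960 and 0.873). The counts of each enzyme were therefore set against the summed counts of Col1a1, Col1a2 and Col3a1 of the same library, a ratio that does not depend on library scaling.

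Relative to collagen mRNA, Serpinh1, P4ha1 and P4ha2 were the genes that differed without overlap between HFD+AAV-BCKDK and ND+AAV-CON hearts. In CPM, 27.7% of all genes tested had no overlap in that comparison, and the share for ratios to collagen was not computed. No collagen in the ratio was called there (0.35, 0.04 and 0.14). The ratios thus largely repeat the CPM differences of 1.32, 1.24 and 1.01 and are not a separate finding. The log2 ratio of Serpinh1 to collagen was 0.42, -0.21 and -0.23 in HFD+AAV-BCKDK hearts, -2.22, -0.70 and -1.84 in HFD+AAV-CON hearts, and -1.16, -1.31 and -1.09 in ND+AAV-CON hearts. Thus every HFD+AAV-BCKDK heart had more chaperone mRNA per collagen mRNA than any heart of the other groups, by a mean of 1.18 against ND+AAV-CON and 1.58 against HFD+AAV-CON. P4ha1 showed the same order, with differences of 1.09 and 1.45, and P4ha2 with 0.86 and 1.95. For each of these 6 differences the exact two-sided permutation p was 0.1, the smallest that 3 libraries against 3 can give, and 0.176 after adjustment over the 51 ratio tests made, so none could pass 0.05.

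The other 7 genes overlapped between HFD+AAV-BCKDK and ND+AAV-CON hearts in this ratio, with differences from -0.18 (P4hb) to 0.32 (Plod1). In HFD+AAV-BCKDK against HFD+AAV-CON hearts, 9 of the 10 ratios were higher without overlap, by 0.78 (Loxl2) to 1.95 (P4ha2), while Lox fell with collagen and differed by -0.61 with overlap (exact permutation p = 0.2). In HFD+AAV-CON against ND+AAV-CON hearts, P4hb, the 3 Plod genes, Loxl1 and Loxl2 were lower per collagen mRNA without overlap, from -1.81 (P4hb) to -0.60 (Loxl2). Serpinh1 (-0.40), P4ha1 (-0.36), P4ha2 (-1.08) and Lox (0.46) overlapped there. The log2 fold changes of Col1a1, Col1a2 and Col3a1 themselves were 2.28, 2.11 and 2.29 under diet. With the vector they were -1.93, -2.07 and -2.15. A gene at an unchanged level would thus have a lower ratio under diet and a higher one with the vector. Such ratios were not computed for all genes, so these contrasts alone do not show a loss or gain of enzyme mRNA.

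**Figure D3:**
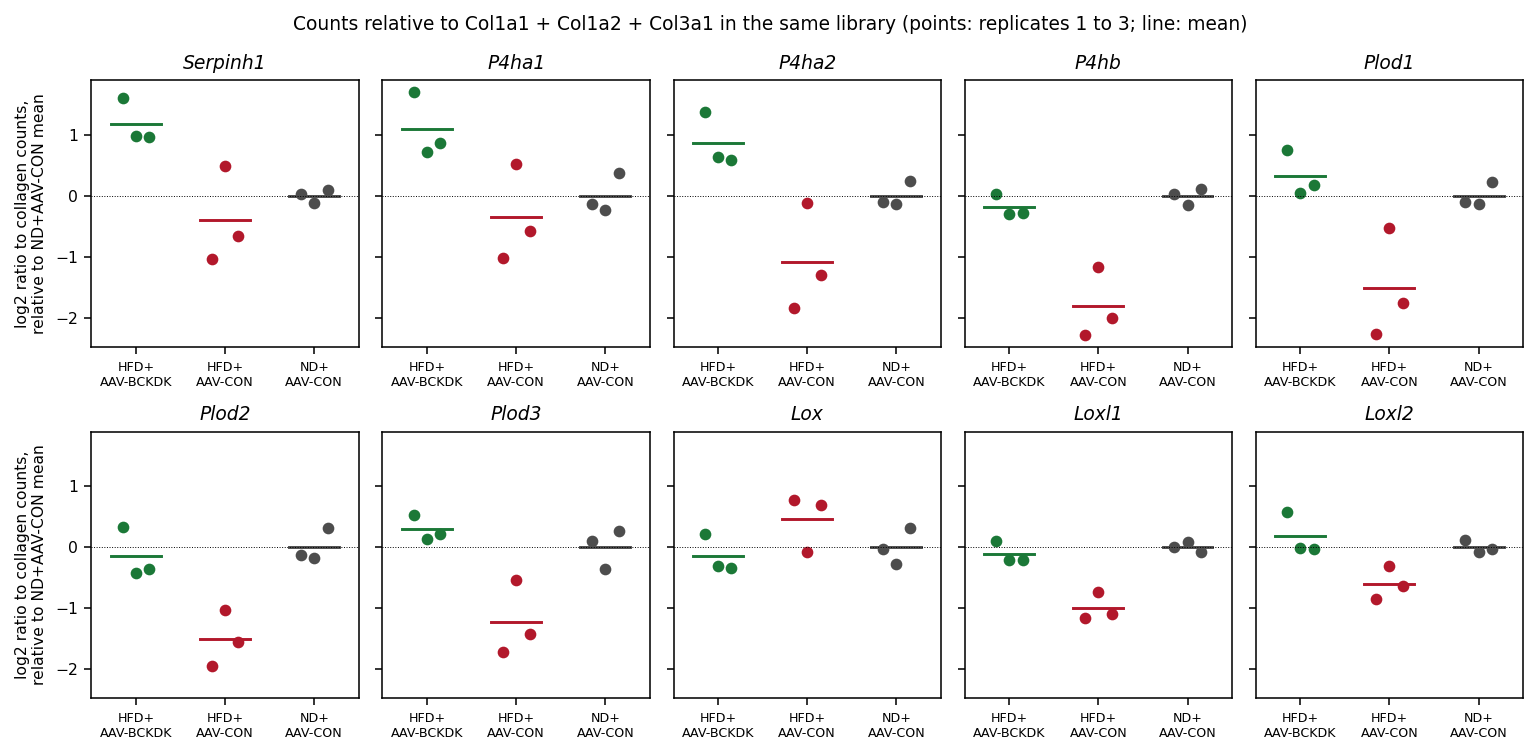
Log2 ratio of each gene's counts to the summed counts of Col1a1, Col1a2 and Col3a1 in the same library (vertical axis, minus the ND+AAV-CON mean) in the 3 groups; points are libraries and lines the means (n = 3 each). Serpinh1, P4ha1 and P4ha2 lie above both control groups in every HFD+AAV-BCKDK heart, by means of 1.18, 1.09 and 0.86 over ND+AAV-CON, whereas P4hb and the lysyl oxidases overlap the ND+AAV-CON points.

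Ratios between members of a family were compared in the same way. P4ha2 per P4ha1 was lower in HFD+AAV-CON than in ND+AAV-CON hearts by 0.73 on the log2 scale, and higher in HFD+AAV-BCKDK than in HFD+AAV-CON hearts by 0.50, both without overlap. The catalytic subunit P4ha1 per P4hb differed without overlap by 1.46 in HFD+AAV-CON against ND+AAV-CON hearts and by 1.27 in HFD+AAV-BCKDK against ND+AAV-CON hearts. Plod2 per Plod1, the telopeptide relative to the helical lysyl hydroxylase, differed by 0.01 in HFD+AAV-CON against ND+AAV-CON hearts, with overlap, and was lower by 0.47 in HFD+AAV-BCKDK than in ND+AAV-CON hearts, without overlap. Loxl1 per Lox was lower by 1.45 in HFD+AAV-CON than in ND+AAV-CON hearts and higher by 1.49 in HFD+AAV-BCKDK than in HFD+AAV-CON hearts, without overlap. Loxl2 exceeded its ND+AAV-CON proportion in HFD+AAV-BCKDK hearts, by 0.32 per Lox and 0.28 per Loxl1, again without overlap. Each of these differences without overlap has an exact permutation p of 0.1 and an adjusted p of 0.176.

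A wider list of 32 other collagen maturation genes was tested in full. It included other hydroxylases and lysyl oxidases, propeptide proteases, prolyl isomerases, sugar-adding enzymes and transport factors. Over all genes tested, 22.7% were called higher and 20.6% lower under diet, and 17.3% and 20.9% with the vector. Of this list, 16 rose and 3 fell in HFD+AAV-CON against ND+AAV-CON hearts, with a median of 0.38. In HFD+AAV-BCKDK against HFD+AAV-CON hearts 2 rose and 18 fell, with a median of -0.43. Without HFD+AAV-CON replicate 3 these counts were 12 and 0, then 1 and 13. On total-count scaling 24 rose and none fell under diet (median 0.80), and none rose and 26 fell with the vector (median -0.90). In HFD+AAV-BCKDK against ND+AAV-CON hearts none passed (median 0.04), with edgeR's test. The genes with the smallest p under diet included Creb3l1, a transcription factor that switches on collagen secretion genes in bone and fibroblasts, with 8.92 CPM in HFD+AAV-BCKDK, 14.3 CPM in HFD+AAV-CON hearts and 6.60 CPM in ND+AAV-CON hearts (log2 fold change 0.43 in HFD+AAV-BCKDK against ND+AAV-CON, adjusted p = 0.0751). Sparc, a collagen-binding matricellular protein, averaged 380.4 CPM in HFD+AAV-BCKDK, 711 CPM in HFD+AAV-CON hearts and 319 CPM in ND+AAV-CON hearts. Loxl3, a further lysyl oxidase, averaged 8.95 CPM in HFD+AAV-BCKDK, 36.7 CPM in HFD+AAV-CON hearts and 5.85 CPM in ND+AAV-CON hearts.

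Genes of procollagen processing and prolyl 3-hydroxylation were among the others with the smallest p. Adamts2, which removes the amino propeptide, rose by 1.65 under diet and fell by 1.56 in HFD+AAV-BCKDK against HFD+AAV-CON hearts, and Pcolce, which speeds removal of the carboxyl propeptide, gave 0.96 and -0.84. The prolyl 3-hydroxylase P3h1 gave 0.61 and -0.54, its relative P3h3 1.17 and -1.19, and Ppib, the cyclophilin that works with P3h1, 0.53 and -0.50. All of these passed in both comparisons, and none did in HFD+AAV-BCKDK against ND+AAV-CON hearts, where the values were 0.09, 0.12, 0.06, -0.03 and 0.03. P4ha3, the rare catalytic isoform of prolyl 4-hydroxylase, had 0, 0 and 2 counts in HFD+AAV-BCKDK libraries, 212, 30 and 72 in HFD+AAV-CON libraries, and 7, 8 and 11 in ND+AAV-CON libraries. It rose under diet and fell with the vector. Unlike P4ha1 and P4ha2, all its HFD+AAV-BCKDK counts lay below those of ND+AAV-CON libraries. That difference did not pass, and counts this low are near the floor. With TMM, Adamts3, Tmem38b and Mia2 were called lower under diet, and P3h4 and Tmem38b higher in HFD+AAV-BCKDK than in HFD+AAV-CON hearts, but none of these calls held on total-count scaling.

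Of 43 collagen chain genes 32 were tested. Under diet 19 rose and 1 fell, beside 22.7% and 20.6% of all genes. In HFD+AAV-BCKDK against HFD+AAV-CON hearts 18 fell and none rose, beside 20.9% and 17.3% of all genes. Col4a1 alone was higher in HFD+AAV-BCKDK than in ND+AAV-CON hearts (0.53, adjusted p = 0.0254), where 1.18% of all genes were called higher. Col4a1 was called only without HFD+AAV-CON replicate 1 or 2 among the fits that left out a library (4 chains each), and no chain was called in the other 7. On total-count scaling no chain was called in this comparison and 23 rose and none fell under diet, while RLE scaling called 3 chains higher in HFD+AAV-BCKDK than in ND+AAV-CON hearts.

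General ER chaperones, listed with a few other ER stress genes, were tested because Serpinh1 and P4hb work in the same compartment. Of the 18 tested, 17 rose and 1 fell under diet, with a median of 1.11. The 1 that fell was Herpud1, a gene of ER-associated degradation rather than a chaperone. In HFD+AAV-BCKDK against HFD+AAV-CON hearts 14 fell and 1 rose, with a median of -0.60. Over all genes tested, 22.7% were called higher and 20.6% lower under diet, and 17.3% and 20.9% with the vector. In HFD+AAV-BCKDK against ND+AAV-CON hearts, where 1.18% of all genes were called higher, 10 rose and none fell, with a median of 0.53. Among the 3 with the smallest p under diet, Hyou1, an ER member of the heat shock 70 family, was higher there by 0.74 (adjusted p = 0.00409), Manf, a secreted ER stress factor, by 0.87 (0.00783) and Sdf2l1, a partner of the ER chaperone Hspa5, by 1.15 (0.0109). Total-count scaling left 0 of these 10 calls, with a median of 0.47. The count was 7 without HFD+AAV-CON replicate 3 and between 2 and 12 when each library was left out. It was 2 without ND+AAV-CON replicate 1 or 2 and 5 without replicate 3 of that group, and 4, 3 and 3 without HFD+AAV-BCKDK replicates 1, 2 and 3. The list holds 4 Pdia genes of the protein disulfide isomerase family, to which P4hb belongs. Pdia3, Pdia4 and Pdia6 were called higher than in ND+AAV-CON hearts, by 0.56, 0.77 and 0.53, while Pdia5 (0.25, adjusted p = 0.552) and P4hb were not.

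**Figure D4:**
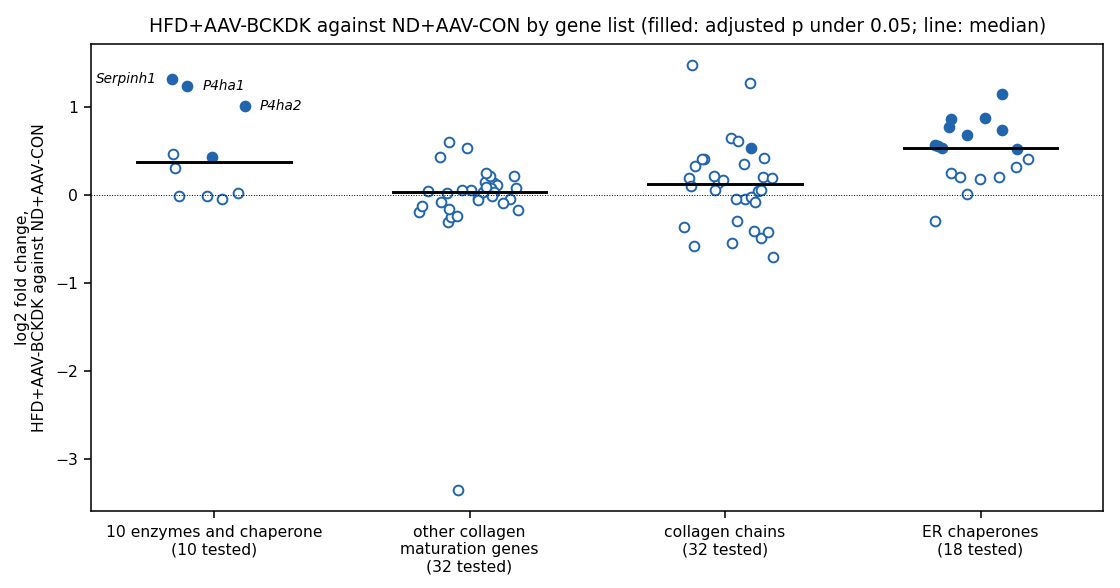
Log2 fold change in HFD+AAV-BCKDK against ND+AAV-CON hearts (vertical axis) by gene list. Shown are the 10 genes, 32 other collagen maturation genes, 32 collagen chains and 18 genes of the ER chaperone list. Filled points have an adjusted p under 0.05 and lines are medians. Filled points number 4, 0, 1 and 10 in these lists, and the lowest open point, at -3.35, is P4ha3.

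Hypoxia-responsive genes, listed because P4ha1, P4ha2, Plod2 and Lox are known hypoxia targets, moved in both directions. Of 18 tested, 5 rose and 3 fell under diet (median 0.12), and 5 rose and 4 fell in HFD+AAV-BCKDK against HFD+AAV-CON hearts (median 0.18). Over all genes tested, 22.7% were called higher and 20.6% lower under diet, and 17.3% and 20.9% with the vector. The counts of this list were near those shares. In HFD+AAV-BCKDK against ND+AAV-CON hearts 3 rose, where 1.18% of all genes were called higher. Leaving out HFD+AAV-CON replicate 3, or any library of the 2 groups compared, left none of these 3 calls. The 5 that rose with the vector numbered 2 without HFD+AAV-BCKDK replicate 1 or HFD+AAV-CON replicate 3 and 10 without HFD+AAV-CON replicate 2, and those that fell numbered 2 without HFD+AAV-BCKDK replicate 2 or HFD+AAV-CON replicate 1 or 3. Under diet 3 rose without HFD+AAV-CON replicate 3 or ND+AAV-CON replicate 1, and the number that fell was 1 without ND+AAV-CON replicate 1 and 6 without HFD+AAV-CON replicate 2. On total-count scaling 11 rose and none fell under diet, and 9 fell and none rose in HFD+AAV-BCKDK against HFD+AAV-CON hearts, where the median turned to -0.26. Pfkfb3, a regulator of glycolysis, and the glucose transporter gene Slc2a1 rose under diet by 1.45 and 0.70, and gave -0.28 and -0.32 in HFD+AAV-BCKDK against ND+AAV-CON hearts, where neither passed. Bhlhe40, a transcriptional repressor, was 0.76 above ND+AAV-CON there (adjusted p = 0.0274).

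Marker genes of cell types were tested in the same comparisons. Over all genes tested, 22.7% were called higher and 20.6% lower under diet, and 17.3% and 20.9% with the vector. Of 8 fibroblast markers 4 rose under diet and 5 fell in HFD+AAV-BCKDK against HFD+AAV-CON hearts (1 and 1 without HFD+AAV-CON replicate 3), and their summed level was 2109 to 2221 CPM in HFD+AAV-BCKDK, 2425 to 2802 CPM in HFD+AAV-CON libraries and 2199.98 to 2368 CPM in ND+AAV-CON libraries. Of 7 markers of activated fibroblasts 5 rose and 1 fell under diet and 5 fell with the vector, with sums of 201 to 257 CPM in HFD+AAV-BCKDK, 491 to 1939 CPM in HFD+AAV-CON libraries and 211 to 287 CPM in ND+AAV-CON libraries. All 7 macrophage markers rose under diet and fell with the vector, with sums of 196 to 270.2 CPM in HFD+AAV-BCKDK, 699 to 1131 CPM in HFD+AAV-CON libraries and 252 to 353 CPM in ND+AAV-CON libraries. Of 6 lymphocyte markers 4 rose under diet and 5 fell with the vector, with sums of 1.57 to 8.29 CPM in HFD+AAV-BCKDK, 69.0 to 126 CPM in HFD+AAV-CON libraries and 1.54 to 28.6 CPM in ND+AAV-CON libraries. Cardiomyocyte markers were high in every library of this heart tissue, with sums of 37020 to 39534 CPM in HFD+AAV-BCKDK, 19276 to 33034 CPM in HFD+AAV-CON libraries and 41065 to 42222 CPM in ND+AAV-CON libraries. Of these 9 markers 7 fell under diet and 7 rose with the vector, against 1 and 0 without HFD+AAV-CON replicate 3.

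Endothelial markers fell under diet in 4 of 6 cases and rose with the vector in 6, with sums of 761 to 868 CPM in HFD+AAV-BCKDK, 488 to 654 CPM in HFD+AAV-CON libraries and 705 to 786 CPM in ND+AAV-CON libraries. Of 6 mural cell markers 2 fell under diet and 2 rose with the vector, with medians of -0.09 and 0.03. These counts are not far from the shares over all genes, 20.6% lower under diet and 17.3% higher with the vector. All 3 red cell markers tested fell under diet and rose with the vector. None of the 4 mesothelial markers passed in any comparison. No marker of any of these lists passed in HFD+AAV-BCKDK against ND+AAV-CON hearts, where only 2.45% of all genes tested were called. These marker counts moved with single libraries. Under diet, the fibroblast markers that rose numbered 1 without HFD+AAV-CON replicate 1 or 3 or ND+AAV-CON replicate 1 or 3, the lymphocyte markers 1 without ND+AAV-CON replicate 1, and the cardiomyocyte markers that fell 2 without ND+AAV-CON replicate 2. With the vector, the cardiomyocyte markers that rose numbered 3, 2 and 3 without HFD+AAV-BCKDK replicates 1, 2 and 3, and no red cell marker passed without replicate 1 of that group. The endothelial markers that fell under diet numbered 2 without HFD+AAV-CON replicate 3 or ND+AAV-CON replicate 1, and those that rose with the vector 3 without HFD+AAV-BCKDK replicate 1 or 3 or HFD+AAV-CON replicate 1 or 3. No mural marker rose with the vector without HFD+AAV-BCKDK replicate 1 or HFD+AAV-CON replicate 3. On total-count scaling 2 endothelial markers fell and 1 rose under diet and 1 rose with the vector, 1 mural marker rose and 3 fell with the vector, 4 cardiomyocyte markers and 1 red cell marker rose with it, and 7 fibroblast markers rose under diet. The part of cell mixture in the falls and rises of the 10 genes was not tested.

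The genes whose levels over the 9 libraries ran closest to each of the 10 were found among 11213 genes, by the root mean square difference of log2 CPM after centring each gene on its mean. Genes found this way share the pattern of the member by selection, so the likeness of their group levels is no separate finding. Serpinh1 and P4ha1 were each other's neighbours (0.152), P4ha1 being nearest to Serpinh1. Both had Hsp90aa1, the inducible cytosolic HSP90, within their nearest 3 (0.176 from Serpinh1, 0.151 from P4ha1). Hsph1, a cytosolic heat shock protein, was the third nearest to P4ha1 (0.155). Hsp90aa1 averaged 320.4 CPM in HFD+AAV-BCKDK hearts (402, 299 and 260 CPM in replicates 1, 2 and 3), 413 CPM in HFD+AAV-CON hearts and 146 CPM in ND+AAV-CON hearts. It differed by 1.13 in HFD+AAV-BCKDK against ND+AAV-CON hearts, and Hsph1 by 1.03. Hsph1 was also highest of its group in HFD+AAV-BCKDK replicate 1 (144, 97.1 and 97.7 CPM). Unlike Serpinh1 and P4ha1, both overlapped HFD+AAV-CON and were not called against it (adjusted p = 0.0772 and 0.0907).

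P4ha2 was closest to Dnajb4 (0.112) and Dnaja1 (0.118), cytosolic partners of HSP70, and to Dennd2a (0.126). Dnajb4 averaged 219 CPM in HFD+AAV-BCKDK hearts, 217 CPM in HFD+AAV-CON hearts and 114 CPM in ND+AAV-CON hearts. Its log2 fold change between the high-fat groups was 0.01, a likeness to P4ha2 that follows from how it was picked. Plod1 was closest to Ahsa1 (0.0572), an activator of HSP90, Hsp90ab1 (0.0606), the constitutive HSP90, and Rhoj (0.0723). Plod3 was closest to Pprc1 (0.0640), Rel (0.0762) and the ER co-chaperone gene Dnajc3 (0.0907).

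Lox was nearest to Sfrp1 (0.220), a secreted Wnt antagonist, Pamr1 (0.233) and Mfap4 (0.270), a microfibril-associated protein, all of which shared the low level in HFD+AAV-CON replicate 2. Loxl1 was nearest to Prg4 (0.106), Gpm6b (0.110) and Tns3 (0.112), and Loxl2 to the collagen genes Col5a1 (0.109) and Col6a2 (0.122) and to Phlda3 (0.124). P4hb was nearest to Cd63 (0.0395), Copb1 (0.0417) and Cdc42 (0.0465), and Plod2 to Synj1 (0.0860), Arpc2 (0.0879) and Zfp472 (0.0924). A small swing gives small differences, so the measures of P4hb and Lox are not on an equal footing.

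**Figure D5:**
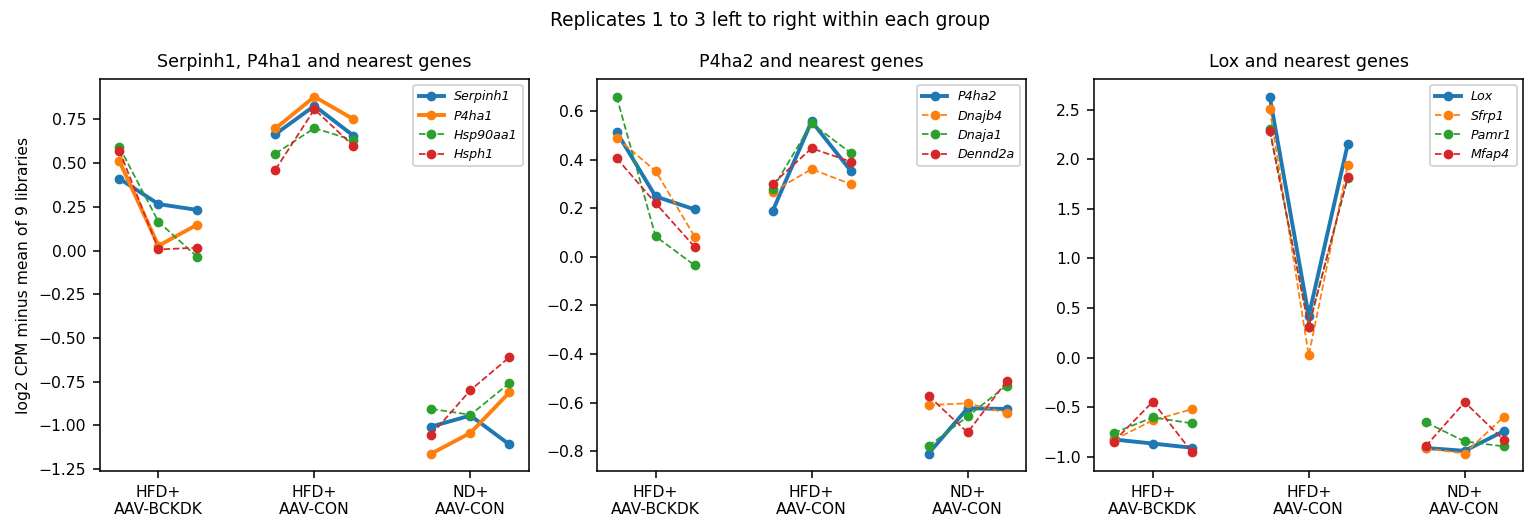
Log2 CPM minus the mean of the 9 libraries (vertical axis) for Serpinh1 and P4ha1, P4ha2, and Lox (solid lines) with their nearest genes (dashed lines), by group; lines join replicates 1 to 3 only to tell the genes apart. Lox, Sfrp1, Pamr1 and Mfap4 all dip in HFD+AAV-CON replicate 2, while Serpinh1 and P4ha1 are highest in that library.

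The scale on which library sizes are set bears on these directions. With total-count scaling in place of TMM the median of all genes moved to 0.40 in HFD+AAV-CON against ND+AAV-CON hearts and to -0.47 in HFD+AAV-BCKDK against HFD+AAV-CON hearts. On that scale P4ha2 and Plod1 were also called lower in HFD+AAV-BCKDK than in HFD+AAV-CON hearts (-0.49 and -0.60, adjusted p = 0.00691 and 0.00197), close to the shift of all genes, and Plod3 was no longer called against ND+AAV-CON (adjusted p = 0.346). The calls of Serpinh1, P4ha1 and P4ha2 in HFD+AAV-BCKDK against ND+AAV-CON hearts held under each scaling that was run.

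In mm10 coordinates of the GENCODE vM21 annotation, Serpinh1 (ENSMUSG00000070436) lies at chr7:99345376-99353239, P4ha1 (ENSMUSG00000019916) at chr10:59323296-59373304, P4ha2 (ENSMUSG00000018906) at chr11:54100095-54131665 and P4hb (ENSMUSG00000025130) at chr11:120560298-120573253. Plod1 (ENSMUSG00000019055) lies at chr4:147909753-147936767, Plod2 (ENSMUSG00000032374) at chr9:92542223-92608428 and Plod3 (ENSMUSG00000004846) at chr5:136987019-136996648. Lox (ENSMUSG00000024529) lies at chr18:52516067-52529867, Loxl1 (ENSMUSG00000032334) at chr9:58287738-58313186 and Loxl2 (ENSMUSG00000034205) at chr14:69609068-69695834. Exons of Plod2, Loxl2 and Lox overlap antisense or unconfirmed transcripts on the opposite strand by 346, 301 and 30 bases, and the counted table has no entry for those transcripts.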

How the data were processed

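Left ventricle RNA was isolated with Trizol, and libraries were made with a VAHTS mRNA-seq v2 kit, according to the labels' protocols. The submitters' processing notes name HISAT2 2.0.5 and mm10. Counter, annotation and strand setting: not given in the sources used here. Each value deposited by the authors is a whole-number read count per gene and library, not normalized. Of 26178 entries, 4142 loci without a gene name (1.02% to 6.01% of counts) entered neither library sizes nor tests, and 4856 annotated genes had no read. Genes were kept by edgeR's filterByExpr with the groups, which left 14160. The fit used edgeR 4.0.16 in R 4.3.3 with TMM factors and quasi-likelihood tests over all 9 libraries with 1 term per group and no covariate, and the common biological coefficient of variation was 18.6%. SE is the absolute log2 fold change over the square root of F, and the approximate 95% interval uses the SE and the normal quantile. Replicates of each group differed by more than sampling noise. The p-values treat the libraries as independent animals. Ratios of counts within a library were tested by exact two-sided permutation in SciPy 1.17.1. Exon lengths came from GENCODE vM21 and promoters from RefSeq.

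The members and gene lists were chosen with earlier results of these data known. Values are given for all members, for Bckdk and the main fibrillar collagens, for 8 other maturation genes and at most 3 genes of each other list by smallest p in HFD+AAV-CON against ND+AAV-CON, and for the 3 nearest genes of each member by likeness, among genes averaging at least 1 on the log2 CPM scale with no predicted-gene symbol, of which 1 neighbour is not reported here. Genes outside this rule (P4ha3, Adamts3, Tmem38b, Mia2, P3h4, Col4a1, Herpud1, Pdia3, Pdia4, Pdia5 and Pdia6) were picked once their values were seen. The alternatives comprised RLE, upper-quartile and total-count scaling, other filters, mitochondrial genes left out, unnamed loci kept, DESeq2 1.42.0, limma 3.58.1 voom, a replicate block, the compared groups alone, thresholds of 0.01 and 0.1, Col1a1 alone in the ratios, and leaving out each library. For the lists, the scalings and left-out libraries were added after seeing the data. Ero1a and Ero1b of the ER chaperone list were not matched by symbol. The test was checked on simulated counts.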

Additional observations from a re-analysis of the deposited data

How the results depend on the processing

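Of the member fold changes refitted under an alternative, 603 kept direction and side of the threshold, 24 lost the call, 7 gained it and 26 changed sign, none of them a called value. For P4ha2 in HFD+AAV-BCKDK against HFD+AAV-CON hearts, fits without a library ran from -0.15 to 0.08 (the positive values 0.0146 and 0.0764). In HFD+AAV-BCKDK against ND+AAV-CON hearts, Lox gave 0.0130 with RLE, 0.0065 with mitochondrial genes left out, 0.0142 with DESeq2, 0.0067 with the 2 groups alone and -0.0437 to 0.0578 without a library, Plod2 gave 0.0095, 0.0030, 0.0094, 0.0028 and -0.0947 to 0.0590 in the same settings, Loxl1 gave -0.0322 with total-count scaling and -0.11 to 0.17 without a library, and P4hb gave -0.0720 to 0.0102 without a library. The count of members called ran from 9 to 10, 6 to 8 and 3 to 5 in the 3 comparisons (diet, vector, vector against normal diet) when each library was left out, and was 5 for the vector comparison at a threshold of 0.01. There P4hb under diet, P4ha1, P4hb and Serpinh1 with the vector, and Plod3 against ND+AAV-CON lost their calls. Without HFD+AAV-CON replicate 3, 28.3%, 19.9% and 0.852% of genes were called. The count of all genes called ran from 4050 to 7325, 2847 to 6978 and 43 to 744 without a library. At a threshold of 0.01 it was 3254 under diet, 2058 with the vector and 64 in HFD+AAV-BCKDK against ND+AAV-CON hearts. The last comparison gave 347 genes, against 136 with total-count scaling, 879 with DESeq2, 873 with the 2 groups alone, 685 at 0.1 and 107 with the replicate block. With total-count scaling 5986 genes were higher and 934 lower under diet (3215 and 2919 with TMM), and 398 and 6867 with the vector (2444 and 2966). Plod3 in HFD+AAV-BCKDK against ND+AAV-CON hearts also lost its call with upper-quartile factors (adjusted p = 0.0531) and unnamed loci kept (0.0590). The cause of these changes was not tested.

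Replicate numbers did not pair the libraries: the correlations of same-numbered libraries ran from -0.220 to 0.192, with 2 of 9 over 0.1. With the replicate block 10, 8 and 3 members were called in the diet, vector and vector against normal diet comparisons, and Plod3 lost its call in the last (log2 fold change 0.44, adjusted p = 0.0822). With Col1a1 alone as the collagen count, the ratio difference of HFD+AAV-BCKDK against ND+AAV-CON moved to -0.387 for P4hb and -0.311 for Loxl1, and the other ratios moved by less than their spread. The lowest group mean of the 10 genes was that of Lox, 7.53 CPM in HFD+AAV-BCKDK hearts, and with 3 libraries a group no permutation test of a ratio could pass 0.05.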
